A study of Mus musculus with 9 samples.

Results

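The receptors described here are 9 genes whose products hold blood stem and progenitor cells in the marrow or steer their movement between marrow and blood: Cxcr4, Gpr183, S1pr1, Itga4, Itga6, Itgb1, Itgb2, Selplg and Cd44. They were taken as every probe set of the deposited value table that the platform annotation assigns to one of these symbols alone, which gave 23 of 45037 probe sets for 9 of 18193 named genes. Each gene had at least 1 probe set, and 18 of the 23 probe sets passed the filter on dim signal and were tested. RNA was measured on 9 Affymetrix Mouse Genome 430 2.0 arrays in 3 groups of 3 samples: control mice, leukemic mice at day 7 and leukemic mice at day 14. All were C57BL/6 mice with a labelled age of 8 weeks, and bone marrow was sorted for CD45.1+ LKS+ cells, the lineage-negative, Kit-positive and Sca-1-positive fraction in which stem cells and the earliest progenitors lie. The antigen CD45.1 tells blood cells of 1 origin from those of another, and the labels call the sorted cells normal; the series title names the disease as AML, acute myeloid leukemia. How it was started is not given in the sources used here, and the control mice have no day label, so time and leukemia cannot be told apart. The labels call the replicates biological without saying whether each was a separate animal or a pool. The p-values here therefore reflect the spread among these samples, which may not be the spread among single animals.

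Stem cells stay in the marrow because several kinds of surface protein act together. CXCR4 is the receptor for the chemokine CXCL12, which marrow stromal cells secrete, and blocking it releases stem cells into the blood. S1PR1 senses sphingosine-1-phosphate, a lipid that is abundant in blood, and promotes exit from tissues; GPR183 senses oxysterols and guides immune cells within lymphoid tissue. Integrins are pairs of an alpha and a beta chain that bind matrix or counter-receptors: alpha 4 with beta 1 binds VCAM-1 and fibronectin, alpha 6 with beta 1 binds laminin, and beta 2 is the shared chain of the leukocyte integrins that bind ICAM proteins. PSGL-1, the product of Selplg, is the ligand of selectins on vessel walls, and CD44 binds hyaluronan.

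The start-site regions of 4 receptor genes are shown because they are the regulatory sequence at hand for genes counted as higher at day 14 than in control. Each gene was counted by its probe set of highest mean log2 intensity. For Itga4 the direction is not settled, since another of its probe sets fell. RefSeq start-site sequences of build GRCm38.p6 matched 5 of the 9 genes, and the 250 bases before the start site are printed on the strand of the gene, 5′ to 3′. Capitals mark every match, on either strand, to the TATA box TATAAA, the GC box GGGCGG, the EGR motif GCGNGGGCG or the hypoxia response core ACGTG. The regions are chr1:128592300-128592549 for Cxcr4 (minus strand), chr14:121965194-121965443 for Gpr183 (minus strand), chr2:79255176-79255425 for Itga4 (plus strand) and chr2:102901666-102901915 for Cd44 (minus strand).
Cxcr4: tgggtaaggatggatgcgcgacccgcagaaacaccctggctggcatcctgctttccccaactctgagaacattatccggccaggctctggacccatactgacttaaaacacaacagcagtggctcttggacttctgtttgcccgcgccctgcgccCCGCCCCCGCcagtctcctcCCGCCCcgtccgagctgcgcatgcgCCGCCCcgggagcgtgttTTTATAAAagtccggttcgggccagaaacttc
Gpr183: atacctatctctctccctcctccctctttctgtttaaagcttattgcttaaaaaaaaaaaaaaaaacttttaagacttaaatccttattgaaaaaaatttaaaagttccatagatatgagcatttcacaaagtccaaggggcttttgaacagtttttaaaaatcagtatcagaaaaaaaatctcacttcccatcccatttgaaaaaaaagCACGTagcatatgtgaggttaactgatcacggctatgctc
Itga4: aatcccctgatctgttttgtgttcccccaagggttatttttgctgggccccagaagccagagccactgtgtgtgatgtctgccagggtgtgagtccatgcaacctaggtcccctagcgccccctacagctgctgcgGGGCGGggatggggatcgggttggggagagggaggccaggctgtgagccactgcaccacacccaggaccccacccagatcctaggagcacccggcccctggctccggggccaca
Cd44: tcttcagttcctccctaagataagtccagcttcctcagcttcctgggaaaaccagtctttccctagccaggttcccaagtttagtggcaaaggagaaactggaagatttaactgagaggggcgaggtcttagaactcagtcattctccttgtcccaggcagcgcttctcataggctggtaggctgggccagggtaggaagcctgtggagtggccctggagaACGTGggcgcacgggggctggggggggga
The Cxcr4 region held 2 overlapping matches to TATAAA, starting 32 and 30 bases before the start site, and 3 matches to GGGCGG, the farthest of which, 95 bases before it, overlaps a match to GCGNGGGCG. The Itga4 region held 1 match to GGGCGG, and the Gpr183 and Cd44 regions held 1 match each to ACGTG, 40 and 29 bases before the start site. Among the 32851 RefSeq regions of the same length, TATAAA was found in 12.4%, GGGCGG in 32.7%, GCGNGGGCG in 4.70% and ACGTG in 16.6%. No match to any of the 4 motifs was shared by all 4 regions.

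At day 14, 6 of the 9 genes were higher than in control (Cxcr4, Gpr183, S1pr1, Itga4, Itga6 and Cd44), Itgb2 was lower, and Itgb1 and Selplg did not pass the test. Itga4 is counted here by 1 probe set, while another, 1421194_at, was lower (log2 change -0.43, limma adjusted p 0.011). At day 7 none of the 9 passed in limma at the brightest probe set of the gene, the one with the highest mean log2 intensity; 1 of them, Itgb2, had an unadjusted p below 0.05. The test was a moderated limma test on log2 intensity with 1 model over all 9 arrays, and a probe set passed at a Benjamini-Hochberg adjusted p below 0.05 over the 27665 probe sets tested. Read in the same way, 48.6% of 12652 named genes passed for day 14 against control, 16.6% higher and 32.1% lower, and 2.71% passed at day 7, 1.81% higher and 0.901% lower. The 9 genes and the gene lists below were chosen with earlier results of these data known. Their counts beside such shares are therefore descriptive and do not test the lists. The median log2 change of the 9 genes from control at day 14 was 0.25, where that of the 12652 named genes was -0.06 and that of all tested probe sets was -0.04. Of the 18 tested receptor probe sets, 10 were higher and 2 lower at day 14 than in control, against 17.0% and 27.5% of all tested probe sets. The day 14 and control arrays did not overlap in 14 of the 18, against 53.0% of all tested probe sets. Both the 10 and the 14 include Gpr183 probe set 1457691_at. It passed the filter on dim signal only through the day 14 arrays, where it was high, so its place in these counts is no separate support. Because 44.4% of all tested probe sets passed, the scaling of the arrays bears on the direction of small changes: 4692 were higher and 7598 lower at day 14 as deposited, 5752 and 6148 with quantile normalization, and 8125 and 5075 with the arrays set to the same 75th percentile. The last of these moved the median of all tested probe sets by 0.12 against control and by 0.13 against day 7. In these sorted populations, fewer cells of a type and less RNA per cell cannot be told apart.

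**Figure D1:**
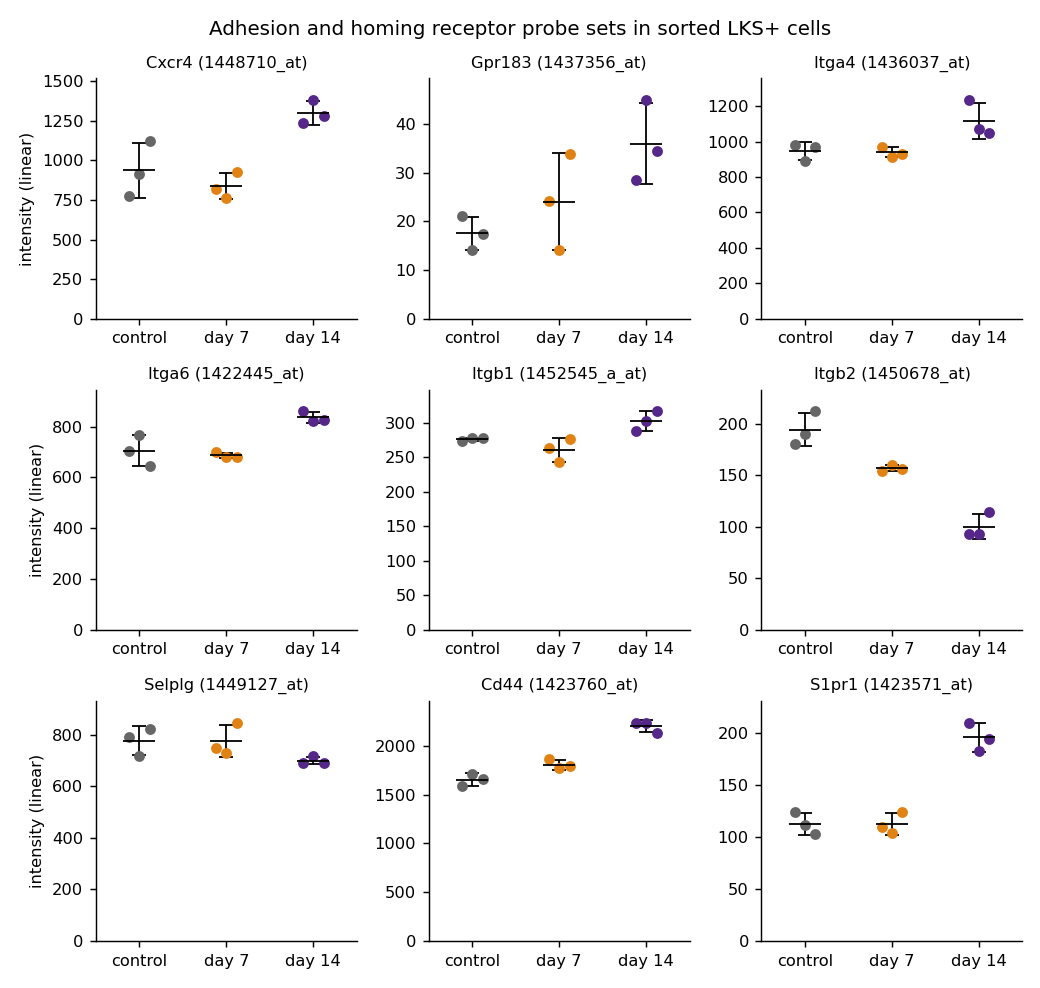
Linear intensity of the brightest probe set of each of the 9 receptor genes in every array, in control, day 7 and day 14 samples; points are arrays, the long bar is the mean and the whiskers are 1 SD (n = 3). All 3 day 14 points lie above the control points for Cxcr4, Gpr183, S1pr1, Itga4, Itga6, Itgb1 and Cd44, and below them for Itgb2 and Selplg.

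Of the guidance receptors, Cxcr4 is measured by 1 probe set (1448710_at), with intensities of 773, 912 and 1124 in control arrays, 821, 763 and 929 at day 7, and 1235, 1380 and 1280 at day 14. The day 14 arrays lay above all others, while control and day 7 overlapped. Cxcr4 averaged 1298 ± 74.5 at day 14 and 937 ± 177 in control (SD, n = 3 each), a 1.40-fold difference (log2 change 0.49, SE 0.13, limma adjusted p 0.013). Against day 7, with a mean of 838 ± 84.2, the difference was 1.55-fold (log2 change 0.64, SE 0.13, limma adjusted p 0.0033). The control arrays were the most spread, and the log2 change from control was 0.36 without control replicate 1 and 0.63 without control replicate 3, past the threshold in both. Without the filter on dim probe sets the call against control was lost (limma adjusted p 0.053).

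S1pr1 (probe set 1423571_at) had intensities of 124, 112 and 103 in control arrays, 110, 103 and 124 at day 7, and 210, 183 and 194 at day 14. Control and day 7 arrays covered the same range, with an identical deposited value in day 7 replicate 3 and control replicate 1, and the lowest day 14 array was above the highest of them. The level was 1.74-fold that of control at day 14 (log2 change 0.80, SE 0.10, limma adjusted p 0.00021) and 1.75-fold that of day 7 (log2 change 0.80, SE 0.10, limma adjusted p 0.00018). At day 7 the log2 change from control was -0.01, with a 95% interval of -0.22 to 0.21.

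Gpr183 was dim. Its brighter probe set (1437356_at) had intensities of 21.0, 14.2 and 17.5 in control arrays, 24.3, 14.0 and 33.9 at day 7, and 28.6, 45.0 and 34.5 at day 14, where the 40th percentile of an array lay between 14.1 and 15.2. The day 7 arrays spanned most of the range of both other groups, with a coefficient of variation of 41.3%, and replicate 2 lay below the 40th percentile. Gpr183 was 2.04-fold higher at day 14 than in control (log2 change 1.03, SE 0.29, limma adjusted p 0.017), a call that was lost without the filter on dim probe sets (adjusted p 0.082) and without control replicate 2 or day 14 replicate 2 (adjusted p 0.061 in both). The other probe set (1457691_at) measured 22.8, 19.4 and 15.6 at day 14, while all control and day 7 arrays lay between 10.1 and 12.5, below the 40th percentile. For this probe set the rise is therefore a bound, at least 1.33-fold over control and at least 1.34-fold over day 7 (limma adjusted p 0.0027 and 0.0023); it was not tested when any day 14 array was left out, since it then failed the filter. The brighter probe set did not pass for day 14 against day 7 (log2 change 0.65, SE 0.29, limma adjusted p 0.099), but passed without day 7 replicate 3, with the arrays set to the same 75th percentile and with array weights (log2 changes of 0.94, 0.78 and 0.97, adjusted p 0.023, 0.046 and 0.034). The change was 0.30 without day 7 replicate 2 (adjusted p 0.32) and 0.29 with an offset of 32 added before the log (adjusted p 0.089).

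Among the genes that surround these receptors, the S1P receptors did not move as a family at day 14. S1pr3 had intensities of 234, 250 and 280 in control arrays, 232, 206 and 210 at day 7, and 71.4, 87.7 and 78.3 at day 14. It fell by 1.69 on the log2 scale against control (SE 0.10, limma adjusted p 7.7e-06), to values well under every array of the other groups. S1pr4, a receptor of lymphoid and myeloid cells, fell by 0.43, and S1pr2 rose by 0.52 (limma adjusted p 0.0016 and 0.0011); the S1pr2 probe set carries the _x_ suffix that Affymetrix gives to probes able to bind other transcripts. Klf2, a transcription factor known to activate S1pr1 in T cells, had intensities of 371, 260 and 413 in control arrays, 503, 482 and 550 at day 7, and 1184, 1621 and 908 at day 14. It was higher at day 14 than in control by 1.82 (SE 0.21, limma adjusted p 0.00018). Of the 11 tested genes of S1P receptors, S1P metabolism and S1PR1 regulation, 2 rose and 2 fell at day 14 against control, and the other 7 did not pass. The share that passed was 36.4%, where that of named genes was 48.6%.

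Around CXCR4, 4 of 12 tested genes rose and 1 fell at day 14 against control, 41.7% together, where 48.6% of named genes passed. RGS proteins shorten G-protein signals such as those from chemokine receptors, and their genes went both ways. Rgs10 rose by 0.78 (SE 0.13), Rgs2 by 0.73 (SE 0.10) and Rgs1 by 0.66 (SE 0.09), while Rgs19 fell by 0.57 (SE 0.07). Rgs18 did not pass (log2 change -0.09, limma adjusted p 0.28), and Rgs16 was too dim to be tested. Rgs1 stood at 7240 ± 469 at day 14 and 4585 ± 382 in control (SD, n = 3 each). Dpp4, a peptidase that cleaves CXCL12, rose by 0.52 against day 7 (SE 0.07). Of 3 tested genes that make or break down the oxysterol ligands of GPR183, Cyp7b1 fell by 0.70 (SE 0.12) and Hsd3b7 by 0.31 (SE 0.09) at day 14 against control. The call for Hsd3b7 was lost with the arrays set to the same 75th percentile and on leaving out control replicate 1 or either of day 14 replicates 1 and 2 (adjusted p up to 0.089).

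**Figure D2:**
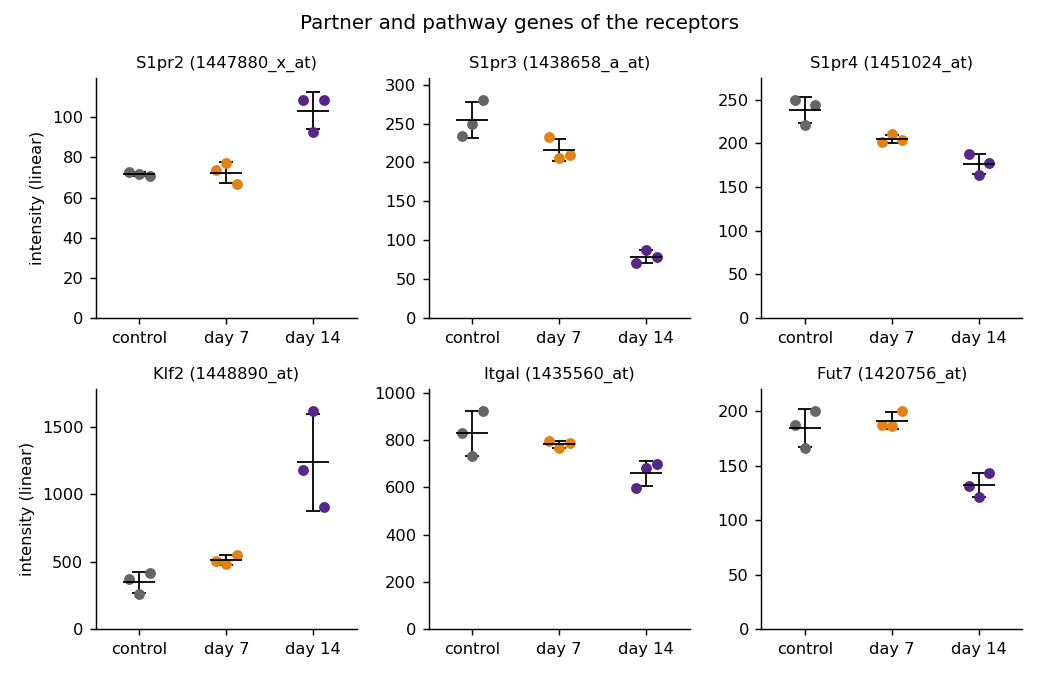
Linear intensity of 6 genes linked to the receptors in every control, day 7 and day 14 array, with the mean as a long bar and 1 SD as whiskers (n = 3). S1pr3 lies between 71.4 and 87.7 at day 14, below all other arrays, and Klf2 lies between 908 and 1621 at day 14, above all other arrays.

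Of the 4 integrin chains among the 9 genes, Itgb2 had the largest change at day 14, and it fell. Its probe set (1450678_at) had intensities of 180, 190 and 212 in control arrays, 154, 160 and 156 at day 7, and 93.3, 92.5 and 114 at day 14. The 3 groups did not overlap, and the order ran down from control through day 7 to day 14. Itgb2 averaged 99.9 ± 12.1 at day 14 and 194 ± 16.1 in control (SD, n = 3 each), a level 0.513 times that of control (log2 change -0.96, SE 0.09, limma adjusted p 7.9e-05). Against day 7 it fell by 0.66 (SE 0.09, limma adjusted p 0.00049). The day 7 difference from control, -0.31 (SE 0.09), did not pass (limma adjusted p 0.10), with groups that did not overlap, as in 27.8% of all tested probe sets.

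Itga6, the laminin-binding alpha chain, is measured by a pair of probe sets that both rose at day 14. The brighter one (1422445_at) had intensities of 703, 766 and 643 in control arrays, 699, 678 and 682 at day 7, and 860, 822 and 825 at day 14. The other (1422444_at) had 353, 337 and 283 in control arrays, 392, 333 and 360 at day 7, and 465, 448 and 453 at day 14. In both, the day 14 arrays lay above all others. The log2 change from control was 0.25 (SE 0.07, limma adjusted p 0.021) for the brighter and 0.50 (SE 0.09, limma adjusted p 0.0024) for the other, and from day 7 0.28 and 0.34 (adjusted p 0.012 and 0.017). The brighter probe set lost its call against control without control replicate 1, control replicate 3 or day 14 replicate 1 (adjusted p up to 0.065), and with only the 2 groups compared (0.051). The dimmer one lost its call against day 7 without day 7 replicate 2, at an adjusted p of 0.069.

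Itga4 has 5 probe sets, and they did not move together. The brightest (1436037_at) had intensities of 979, 890 and 971 in control arrays, 971, 915 and 932 at day 7, and 1234, 1070 and 1047 at day 14, a log2 change from control of 0.24 (SE 0.08, limma adjusted p 0.036). By contrast, probe set 1421194_at had intensities of 59.4, 46.5 and 63.2 in control arrays, 57.2, 58.9 and 52.1 at day 7, and 41.9, 43.5 and 39.2 at day 14, a log2 change of -0.43 (SE 0.11, limma adjusted p 0.011). Both sets of day 14 arrays lay apart from the other groups, on opposite sides. Probe sets 1456498_at, which holds 1 identical value in replicate 1 of all 3 groups, and 1450155_at did not pass (log2 changes of 0.23 and -0.15, limma adjusted p 0.16 and 0.38), and 1427615_at lay below the 40th percentile in all arrays and was not tested. The rise in the brightest probe set rested on most of the arrays: the call against control was lost without any 1 of the control replicates, day 7 replicate 2, day 7 replicate 3 or day 14 replicate 1, with an adjusted p up to 0.11. It was also lost in the unfiltered fit, in a fit of these 2 groups alone and in a fit that weights the arrays (adjusted p 0.055, 0.073 and 0.060). Against day 7, where the log2 change was 0.25 (limma adjusted p 0.032), the call was lost without any 1 of the day 7 replicates or without day 14 replicate 1 (adjusted p up to 0.10). The fall in 1421194_at kept its call in all 9 fits that left out an array, with an adjusted p up to 0.040.

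Itgb1, the beta chain that pairs with both alpha chains above, has 6 probe sets, of which 3 lay below the 40th percentile in all arrays. The brightest (1452545_a_at) had intensities of 274, 278 and 278 in control arrays, 263, 243 and 277 at day 7, and 288, 303 and 317 at day 14. Its day 14 arrays lay above the other groups, yet the log2 change from control was 0.13 (95% interval -0.03 to 0.29, limma adjusted p 0.16). With quantile normalization and with the arrays set to the same 75th percentile that change passed, at 0.21 and 0.25 (adjusted p 0.032 and 0.015). Against day 7 it rose by 0.22 (SE 0.07, limma adjusted p 0.033), a call lost without day 7 replicate 1, day 7 replicate 2, day 14 replicate 2 or day 14 replicate 3 (adjusted p up to 0.13), and with only the 2 groups compared (0.053). The other bright probe set (1426918_at) had intensities of 253, 271 and 248 at day 14 and 258, 275 and 288 in control arrays, which overlapped, and its log2 change was -0.09 (limma adjusted p 0.35). Probe set 1427771_x_at, near 20 in intensity, changed by -0.03 at day 14 against control (limma adjusted p 0.68).

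**Figure D3:**
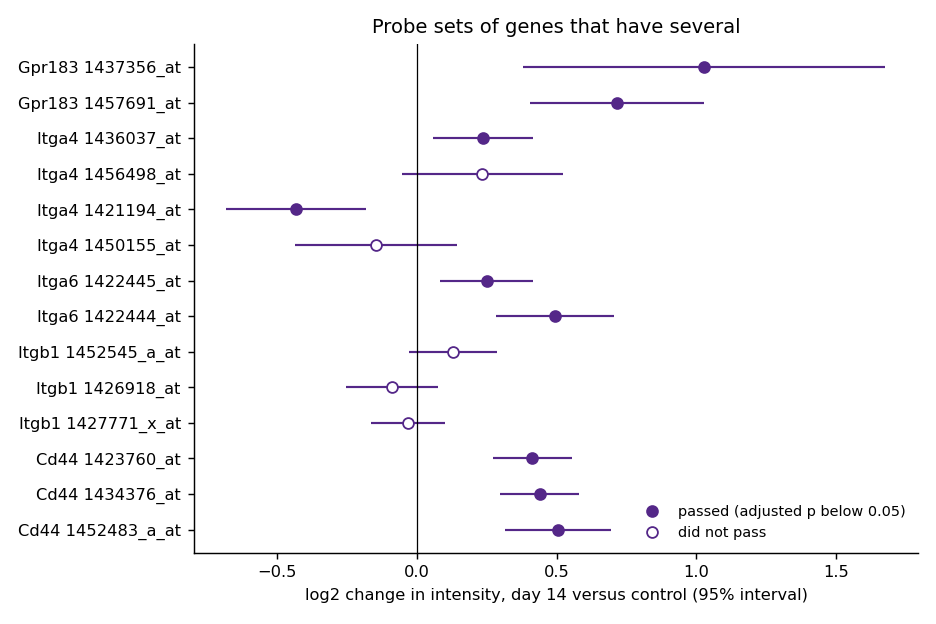
Log2 change for day 14 against control, with its 95% interval, for each tested probe set of the receptor genes that have several; filled points passed at an adjusted p below 0.05. The 3 Cd44 and both Itga6 probe sets lie above 0, while Itga4 probe sets lie on both sides, from -0.43 to 0.24; for Gpr183 1457691_at the point is the fitted change, whose fold is a bound because all control arrays were dim.

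Among the 12 tested integrin subunits outside the 9 genes, 3 rose at day 14 against control, 1 fell and 8 did not pass. That is 33.3% passing, where 48.6% of named genes passed. Itgb3 and Itga2b, which pair as the platelet fibrinogen receptor, rose by 1.68 (SE 0.11) and 1.04 (SE 0.09). Itgal, the alpha chain that pairs with the Itgb2 product to bind ICAM proteins, had intensities of 599, 681 and 700 at day 14, against 832, 734 and 924 in control arrays, a fall of 0.33 (SE 0.09, limma adjusted p 0.018). This call was lost with the arrays set to the same 75th percentile, without control replicate 3 and without day 14 replicate 1 (adjusted p up to 0.082). Itgam, the alpha chain of the myeloid beta 2 integrin, changed by 0.07 and did not pass (limma adjusted p 0.72). Of 22 tested genes that activate integrins or tie them to actin, 2 rose and 5 fell, 31.8% together, below the same share of named genes. Rap1b, a GTPase that switches integrins on, rose by 0.78 (SE 0.06) and Zyx, an adhesion-site protein gene, by 0.42 (SE 0.08). Rac2 fell by 0.53 (limma adjusted p 0.00049), and the parvin genes Parvb and Parvg fell by 0.46 and 0.43.

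Selplg (probe set 1449127_at) had intensities of 791, 717 and 824 in control arrays, 748, 729 and 847 at day 7, and 691, 716 and 690 at day 14. Day 14 arrays lay just below those of control, with the highest day 14 array next to the lowest control one. The log2 change from control was -0.15 (95% interval -0.33 to 0.03, limma adjusted p 0.15) and that from day 7 was -0.15 (limma adjusted p 0.18), and neither passed. Under the 75th percentile scaling the change from control was -0.03. Fut7, the fucosyltransferase that PSGL-1 needs in order to bind selectins, had intensities of 131, 122 and 143 at day 14, against 187, 166 and 200 in control arrays, a fall of 0.48 (SE 0.09, limma adjusted p 0.0021). Tpst1, which sulfates tyrosines of such ligands, fell by 0.47 (SE 0.11). Selp, which encodes P-selectin, the binding partner of PSGL-1 that platelets also store, rose by 1.25 (SE 0.08), to 399 ± 1.46 at day 14 against 168 ± 1.76 in control (SD, n = 3 each). Of 14 tested genes of selectins and their glycosylation, 3 rose and 5 fell, 57.1% together, where 48.6% of named genes passed. Golph3 and Podxl rose by 0.85 (SE 0.10) and 0.54 (SE 0.11), and Emcn fell by 0.69 (SE 0.12).

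Cd44 was higher at day 14 in each of its 3 tested probe sets. Its brightest probe set (1423760_at) had intensities of 1586, 1714 and 1664 in control arrays, 1866, 1768 and 1790 at day 7, and 2240, 2239 and 2131 at day 14. The next (1434376_at) had 1316, 1307 and 1236 in control arrays, 1386, 1387 and 1397 at day 7, and 1676, 1833 and 1726 at day 14. In both, the 3 groups did not overlap, in the order control, day 7, day 14. Against control, neither passed at day 7 (limma adjusted p 0.28 and 0.35). Control and day 7 arrays lay apart in 27.8% of all tested probe sets. Day 14 arrays lay apart from those of control in 53.0%, and from those of day 7 in 54.2%. The brightest rose by 0.41 at day 14 against control (SE 0.06, limma adjusted p 0.00077) and by 0.29 against day 7 (SE 0.06, limma adjusted p 0.0053). The third (1452483_a_at) had intensities of 92.3, 86.5 and 98.6 in control arrays, 125, 114 and 123 at day 7, and 124, 145 and 125 at day 14. It was the single receptor probe set of 18 to pass at day 7, where 3.39% of all tested probe sets passed (1.90% higher and 1.49% lower), with a log2 change of 0.39 (SE 0.08, limma adjusted p 0.041). That call was lost without any 1 of the control or day 7 replicates and without day 14 replicate 3 (adjusted p up to 0.14), and the day 14 arrays overlapped those of day 7. The fourth probe set, 1443265_at, lay below the 40th percentile in all arrays.

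Taking the stages in order, none of the 9 genes passed at day 7 and 7 of 9 passed between day 7 and day 14, where 47.6% of named genes passed, 15.7% higher and 31.9% lower. Cxcr4, S1pr1, Itga4, Itga6, Itgb1 and Cd44 rose between those days at the brightest probe set and Itgb2 fell. Itga4 probe set 1421194_at went the other way, with a log2 change of -0.43 (limma adjusted p 0.011). By probe set, 9 of 18 were higher and 2 lower at day 14 than at day 7, where 42.2% of all tested probe sets passed, 16.5% higher and 25.7% lower. As counts, 4574 were higher and 7099 lower as deposited, 5584 and 5797 with quantile normalization, and 8551 and 4785 with the arrays set to the same 75th percentile. The arrays of these groups did not overlap in 13 of the 18, against 54.2% of all tested probe sets. Both the 9 and the 13 include Gpr183 probe set 1457691_at, which passed the filter only through its day 14 arrays. The comparisons share arrays (control in one pair, day 14 in another), so their values are given side by side without a measure of likeness. Cd44, Itgb2 and Gpr183 had day 7 means between those of control and day 14, and so did Selplg, whose day 7 mean of 775 was close to its control mean of 777. The day 7 means of Cxcr4, Itga4, Itga6, Itgb1 and S1pr1 lay below those of both control and day 14. The day 7 change did not pass for any of the 9 genes. Its 95% interval included 0 for all of them but Itgb2 (-0.52 to -0.09). The median log2 change of the 9 genes was -0.01 at day 7 and 0.28 for day 14 against day 7. In the same order, it was 0.01 and -0.06 for the named genes, and 0.005 and -0.02 for all tested probe sets.

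**Figure D4:**
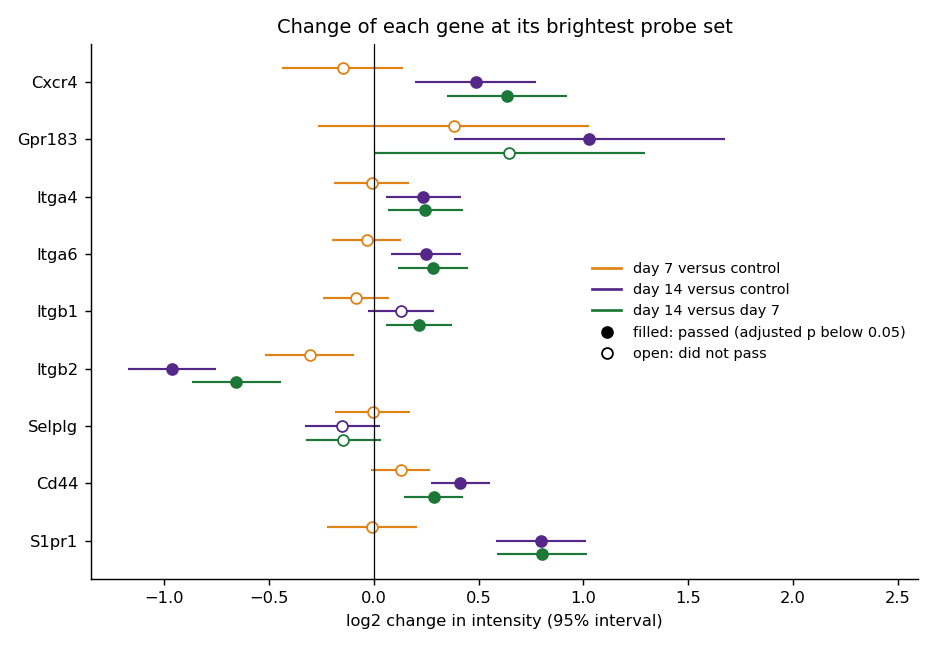
Log2 change in intensity, with its 95% interval, for the brightest probe set of each receptor gene in the 3 comparisons; filled points passed at an adjusted p below 0.05. No point for day 7 against control is filled, S1pr1 lies at 0.80 in both comparisons of day 14, and Itgb2 is the one gene whose change at day 14 passed below 0.

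The wider lists of adhesion and homing genes moved in both directions at day 14. Of 110 tested genes on 8 lists, 29 rose and 21 fell against control, 45.5% together, near the 48.6% of all named genes; with the arrays set to the same 75th percentile 45 rose and 14 fell. At day 7 the only one that passed was Ccr7, a lymphoid homing receptor, which fell by 0.41 (limma adjusted p 0.037); it lost its call without control replicate 1 or 3, without any 1 of the day 7 replicates and without day 14 replicate 2 or 3 (adjusted p up to 0.12). Of 28 tested other adhesion and homing surface proteins, 11 rose and 5 fell at day 14 against control. Lrp1, an endocytic receptor, rose by 1.22 (SE 0.15), Cd9, a tetraspanin gene, by 0.66 (SE 0.10) and Ptger4, a prostaglandin E receptor gene, by 0.61 (SE 0.09). Icam2, an adhesion molecule that beta 2 integrins bind, fell by 0.60 (SE 0.06). Ccr7 lay below the 40th percentile in all 3 day 14 arrays and was at least 1.63-fold lower there than in control (limma adjusted p 5.5e-05). Ccr9, a chemokine receptor gene of thymus-seeding cells, fell by 0.86 (SE 0.25), a call lost without control replicate 3 or day 14 replicate 2 (adjusted p up to 0.068). Of 8 tested counter-receptor and matrix genes, 4 rose, led by Mmp14, a membrane metalloprotease gene, at 0.84 (SE 0.16); the other 4 did not pass.

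**Figure D5:**
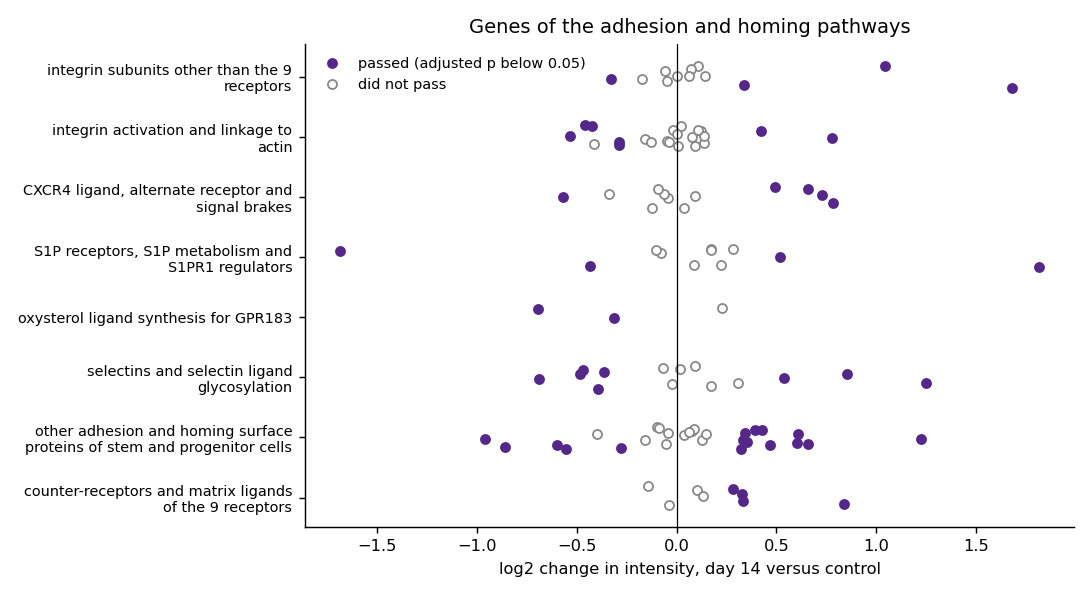
Log2 change for day 14 against control of each tested gene on the 8 lists of adhesion and homing genes, 1 point a gene; filled points passed at an adjusted p below 0.05, and the vertical scatter within a list has no meaning. The lowest point is S1pr3 at -1.69, and the highest are Klf2 at 1.82 and Itgb3 at 1.68.

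By the root mean square difference of centred log2 intensity over the 9 arrays, the named genes most like Itgb2 among 11970 candidates were S100pbp (0.07), Tor4a (0.07) and Rbm43 (0.08), where Itgb2 itself varied by 0.41 about its mean. Their log2 changes at day 14 against control were -0.88, -0.91 and -0.91. The genes most like Gpr183 were Ccl9 (0.24), Ifitm6 (0.24) and Klrb1f (0.25), against 0.56 for Gpr183 about its own mean. The likeness is looser for Gpr183, whose replicates were more spread.

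Kit, one of the antigens used in the sort, was bright in all groups. It averaged 1696 ± 199 at day 14 and 1720 ± 40.3 in control (SD, n = 3 each), and the progenitor genes Flt3, Cd34 and Slamf1 did not pass either (limma adjusted p 0.57, 0.30 and 0.99). Of the 9 measured stem and progenitor markers, Gata2 rose by 0.43, and Cd48 and Procr fell by 0.85 and 0.43 (limma adjusted p 0.0051, 0.00022 and 0.017). The Sca-1 gene Ly6a is not analysed here, so that antigen of the sort was not checked. Some markers of other blood cells differed between the groups, a few of them already at day 7. Against control, 1 of 7 tested megakaryocyte, 1 of 8 neutrophil and 2 of 6 B cell markers were higher at day 7, and no marker of the other lists passed. Among all named genes, 2.71% passed at day 7, 1.81% higher and 0.901% lower. For day 14 against control, 48.6% of named genes passed, 16.6% higher and 32.1% lower. The marker counts given here are to be read beside these shares. The summed intensity of 8 megakaryocyte and platelet markers was 610 to 696 in control arrays, 761 to 818 at day 7 and 1605 to 1885 at day 14, and 5 of 7 tested rose against control; Gp6 lay below the 40th percentile in all arrays. For 5 monocyte and macrophage markers the sum was 1566 to 2054 in control arrays, 1600 to 1982 at day 7 and 2292 to 2901 at day 14, with 3 of 5 higher. These were Csf1r, the receptor of a macrophage growth factor, and Adgre1 and Cd14, which were dim (10.8 to 15.8 and 14.4 to 17.3 in control arrays). Csf1r carried the rise of the sum, at 727, 494 and 1000 in control arrays and 1261, 1865 and 1470 at day 14. Lyz2 had 958.5, 979.4 and 959.4 in control arrays and 915.1, 880.7 and 913.8 at day 14, and did not pass. For 8 neutrophil markers it was 5168 to 6176, 5863 to 7119 and 6872 to 8317 in the same order, with 3 higher and 2 lower. Mpo and Prtn3, granule protein genes of early myeloid cells, made up most of this sum, and both rose with Elane. S100a8 and S100a9, which mark mature neutrophils, fell, to 16.9 ± 5.72 and 21.5 ± 9.11 at day 14, against 32.8 ± 5.23 and 34.3 ± 3.75 in control (SD, n = 3 each). For 7 B cell markers it was 256 to 269, 304 to 371 and 339 to 438, with 4 of 6 tested higher and 1 lower, and Ms4a1 below the 40th percentile in all arrays. Ebf1 passed the filter on dim signal only through the day 14 arrays, so its place in this count is no separate support. It lay between 3.79 and 5.74 in control arrays and between 20.4 and 45.2 at day 14. Cd79b fell, from 157, 150 and 156 in control arrays to 97.0, 102 and 111 at day 14. For 8 T and NK cell markers the sum was 770 to 894, 924 to 941 and 613 to 722, and 2 of 5 tested were higher and 1 lower. Cd3d and Cd3g lay below the 40th percentile in all arrays. Nkg7 made up most of this sum, at 781, 776 and 669 in control arrays and 511, 485 and 585 at day 14. For 4 erythroid markers it was 173 to 909, 246 to 278 and 130 to 207, and the 3 tested did not pass at day 14 against control (limma adjusted p from 0.074 to 0.59). Control replicate 1 stood apart in this list, with intensities of 672 for Car1 and 155 for Klf1, against 87.0 and 73.9 for Car1 and 36.1 and 44.8 for Klf1 in the other control arrays. Without that array, 5 of the 9 receptor genes passed at day 14 against control, Itga4 and Itga6 being lost, and the change of Cxcr4 was 0.36. For 7 stromal and endothelial markers it was 113 to 122, 113 to 116 and 145 to 157, with 2 of 4 tested higher and Cdh5, Col1a1 and Pdgfra below the 40th percentile in all arrays. The part of these cell types in the changes of the 9 receptors was not tested. Itgb3 and Itga2b, named among the integrins above, are themselves on the megakaryocyte list.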

How the data were processed

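The authors deposited linear intensities, with 1 value for each probe set in each array. The series' design text names a 2-cycle amplification of the RNA and normalization by Microarray Analysis Software 5.0; further steps are not given in the sources used here. Identical values recur between arrays for 51.64% of probe sets, including 13 of the 23 receptor probe sets, and the scaling was therefore varied. Signals computed for each array alone would rarely repeat exactly, so how the deposited intensities were normalized is uncertain, and with it how levels compare between arrays. Precision is limited by having 3 arrays a group, and the labels give no batch.

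The platform annotation named a probe set where it gave 1 symbol (34945; 932 had several, 9160 none), with symbols updated through Entrez IDs to the RefSeq names of GRCm38.p6. Intensities were floored at the table's 20th percentile (5.81) and turned to log2. Probe sets above the 40th percentile of their array in at least 3 arrays were tested, which left 27665 and removed 17372. limma 3.58.1 in R 4.3.3 fitted 1 linear model with 3 groups and no covariates, with Benjamini-Hochberg adjustment over all tested probe sets. A gene was read at its brightest probe set; where a group lay below the 40th percentile in all its arrays, the fold is a bound against the higher of that percentile and the value. Named genes were the 9 receptors, up to 3 passing genes per direction, list and comparison with groups that did not overlap, and the markers. The receptors and lists were chosen with earlier results of these data known. The fit was run on simulated independent normal values with 200 changed probe sets, far fewer than passed at day 14. That run did not vary the scaling of the arrays, so it does not bear on it. Alternatives are given in the closing section. Same-numbered replicates did not deviate together in every pair (correlations from -0.13 to 0.11), so the replicate numbers were not used to pair samples in the fit reported.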

Additional observations from a re-analysis of the deposited data

Results flagged for a closer look

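By the limma test of day 14 against day 7, the change from control differed for 11 of the 18 tested receptor probe sets. Over all tested probe sets 42.2% passed this test, 16.5% higher and 25.7% lower. The log2 differences of the 11 were 0.64 for Cxcr4, 0.73 for the dimmer Gpr183 probe set and 0.80 for S1pr1. For that Gpr183 probe set 0.73 is the fitted value, and the rise is a bound of at least 1.34-fold. The differences were 0.25 and -0.43 for Itga4 probe sets 1436037_at and 1421194_at, and 0.28 and 0.34 for Itga6 probe sets 1422445_at and 1422444_at. They were 0.22 for Itgb1 probe set 1452545_a_at, -0.66 for Itgb2, and 0.29 and 0.33 for Cd44 probe sets 1423760_at and 1434376_at. The 2 Itga4 values have opposite signs for the same gene.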

How the results depend on the processing

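The changes of the 9 genes in 3 comparisons gave 537 values under 20 alternatives, fewer for Gpr183, which the stricter filter removed; 494 kept their direction and their side of the threshold, 26 lost a call, 5 gained one and 12 changed sign. The calls for Itgb2, Cd44 and S1pr1 at day 14, against control and against day 7, held in all alternatives run, as did those for Cxcr4 and Itga6 against day 7. All 12 sign changes were in day 7 changes that had not passed: Gpr183 at -0.024 with array weights and, with 1 array left out, ranges of -0.054 to 0.015 for Itga4, -0.097 to 0.029 for Itga6, -0.071 to 0.038 for Selplg and -0.079 to 0.063 for S1pr1. Without the filter on dim probe sets, 4 genes passed at day 14 against control in place of 7, and no receptor probe set passed at day 7 (0 against 1); the day 7 count was also 0 with the replicate block and with only the 2 groups compared, and 0 to 1 with 1 array left out. Same-numbered arrays share only a number; the replicate block changed no other count of receptor genes or probe sets by over 1.5 times. Over all probe sets, 938 passed at day 7, against 32 without the filter, 458 with the replicate block, 365 with only the 2 groups compared, 1429 with an offset of 32, 1659 with a trended robust prior, 3012 with array weights and 137 to 1015 with 1 array left out; the cause was not tested. Relative to the median of all tested probe sets, the day 14 change of Itgb1 from control was 0.17 as deposited and 0.20 with quantile normalization.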
